A study of Mus musculus with 8 samples.

Results

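The circadian clock genes described here are 10 repressors and output factors of the clock, Nr1d1, Nr1d2, Per1, Per2, Per3, Cry1, Cry2, Dbp, Tef and Ciart, chosen by gene symbol from the 16888 genes of a table of RNA levels in mouse pancreas. All 10 symbols were in the table. The choice was by symbol and not by a threshold on values, but it was made with earlier results of these data known. The CKO group was 4 pancreas samples (CKO1 to CKO4) from mice labelled as knockout for Anxa1 in myeloid cells, and the WT group was 4 samples (WT1 to WT4) from Anxa1 flox/flox mice. Both groups had received cerulein, a secretagogue peptide, by repeated injection, which gives acute pancreatitis, so no sample came from a pancreas without it. The labels give neither the Cre driver, the age, the hour at which tissue was taken nor whether replicates were separate animals. A difference in collection hour therefore cannot be told apart from a difference in genotype, and every p-value measures the spread between these samples, which may be technical. The comparison asks how pancreatitis differs when myeloid cells, the lineage of macrophages and neutrophils, lack annexin A1, a membrane-binding protein known to limit inflammation.

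The clock of mammalian cells is a feedback loop of transcription. The activators BMAL1 (gene Arntl) and CLOCK bind E-box sequences and switch on the Per and Cry genes, whose proteins return to the nucleus and repress them. The same activators switch on Nr1d1 and Nr1d2, whose proteins REV-ERB alpha and beta repress Arntl through RORE sequences, and on Dbp and Tef, activators that bind D-box sequences. Because the transcripts of many of these genes rise and fall over the day, at different hours for different genes, their levels in a tissue depend on the hour of collection. In the pancreas, clocks run in both acinar and islet cells.

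Promoter windows of Nr1d1 and Per1 are shown as those of the genes called in the read-count fit described below. Those of Ciart and Per3 are shown as the ones that hold a motif more than once, and 1 of Arntl as the repression target of Nr1d1. Arntl had 2 overlapping windows. Only the second is printed, which holds the RORE core, and the first held none of the motifs searched. Per1 also had 2 windows, of which the first is printed. They are RefSeq sequences of build GRCm38.p6, each from 250 bases before to 50 bases after a transcript start. Capitals mark an E′-box (CACGTT) in Nr1d1, read on the opposite strand as AACGTG, E-boxes (CACGTG) in Per1 and Ciart, D-boxes (TTATGTAA) in Per3 and the core of a RORE (TAGGTCA) in Arntl.
Nr1d1, chr11:98775328-98775627, minus strand: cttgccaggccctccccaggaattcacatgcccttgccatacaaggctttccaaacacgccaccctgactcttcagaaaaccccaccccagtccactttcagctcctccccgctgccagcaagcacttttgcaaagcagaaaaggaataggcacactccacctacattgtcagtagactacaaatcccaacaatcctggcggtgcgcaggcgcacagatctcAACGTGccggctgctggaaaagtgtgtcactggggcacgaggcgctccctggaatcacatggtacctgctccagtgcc
Per1, chr11:69098699-69098998, plus strand: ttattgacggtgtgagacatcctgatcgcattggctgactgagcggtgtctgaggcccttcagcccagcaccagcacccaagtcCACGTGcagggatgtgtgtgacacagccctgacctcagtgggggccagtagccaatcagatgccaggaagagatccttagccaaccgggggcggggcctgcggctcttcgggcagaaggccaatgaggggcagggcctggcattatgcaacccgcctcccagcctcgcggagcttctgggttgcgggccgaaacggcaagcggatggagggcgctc
Ciart, chr3:95882179-95882478, minus strand: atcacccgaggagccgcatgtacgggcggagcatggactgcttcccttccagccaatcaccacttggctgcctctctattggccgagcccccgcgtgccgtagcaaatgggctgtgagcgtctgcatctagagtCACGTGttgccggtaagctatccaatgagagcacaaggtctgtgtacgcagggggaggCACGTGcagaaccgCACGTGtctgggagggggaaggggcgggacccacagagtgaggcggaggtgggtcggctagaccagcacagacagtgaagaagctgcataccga
Per3, chr4:151044616-151044915, minus strand: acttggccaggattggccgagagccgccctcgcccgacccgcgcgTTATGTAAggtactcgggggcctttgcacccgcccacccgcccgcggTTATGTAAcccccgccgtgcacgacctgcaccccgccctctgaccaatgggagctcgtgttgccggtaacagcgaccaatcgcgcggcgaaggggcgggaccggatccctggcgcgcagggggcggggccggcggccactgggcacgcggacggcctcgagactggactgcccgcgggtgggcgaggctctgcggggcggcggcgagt
Arntl, chr7:113207261-113207560, plus strand: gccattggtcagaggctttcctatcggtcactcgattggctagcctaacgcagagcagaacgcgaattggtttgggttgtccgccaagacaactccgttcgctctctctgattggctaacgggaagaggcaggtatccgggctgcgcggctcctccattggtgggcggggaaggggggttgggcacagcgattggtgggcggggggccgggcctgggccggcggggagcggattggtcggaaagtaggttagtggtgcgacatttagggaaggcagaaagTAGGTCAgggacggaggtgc

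RefSeq windows were matched for 9 of the 10 clock genes, with 11 windows in all, and Per2 had no match. Both strands were searched, and no match overlapped another. The E-box (CACGTG) stood in windows of 4 clock genes (Per1, Cry1, Tef and Ciart), and in 7.15% of all 32851 windows of that length. Ciart held 3 of them, at 116, 58 and 44 bases before the start. The E′-box (CACGTT) stood in 3 (Nr1d1, Cry1 and Cry2), against 4.68% of all windows. The D-box, searched as TTATGTAA and TTACGTAA, stood in 1, Per3, which held it 2 times, against 1.06% of all windows. The core of the site bound by CREB (TGACGT) stood in 1, in the second Per1 window, against 7.51% of all windows. The RORE core, searched as TAGGTCA and TGGGTCA, stood in 0 of the 9 genes, against 6.45% of all windows. These matches are letters in a window and do not show that a factor bound there.

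The levels come from bulk tissue, so fewer cells of a type and less RNA per cell cannot be told apart. They are RPKM, reads scaled to the length of the gene and to the total reads of the library. The lengths recovered from the values differed from the exon bases of GENCODE M21, in either direction. Arntl had 19265 against 7523 bases, Per1 8473 against 5631, Cry2 4138 against 6320 and Per3 6792 against 9608. Levels of different genes can therefore be set side by side only roughly, while the ratio of a gene between groups does not depend on its length. Between samples the levels are shares of a total, and the calls moved with the scaling, as given in the closing section. The library totals recovered from the values ran from 31584517 to 34359802 reads in CKO and from 30469002 to 32112760 reads in WT. Anxa1 itself ran from 4.76 to 7.13 RPKM in CKO and from 7.05 to 14.7 RPKM in WT (log2 change -0.73, SE 0.19, limma adjusted p = 0.0417), a partial drop in a tissue where the deletion is labelled for myeloid cells alone. That call was lost without CKO1 (limma adjusted p = 0.0659), CKO2 (0.108), CKO3 (0.0636), WT1 (0.0759), WT2 (0.0826) or WT4 (0.0922). Median centring (0.0899), totals without acinar enzymes (0.0682), limma-voom (0.0595) and a fit without the filter (0.085) ended it as well. Markers of acinar cells, which make the digestive enzymes, summed to 102795 to 139347 RPKM in CKO and 119883 to 126056 RPKM in WT. All 10 clock genes had reads in every library.

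Nr1d1 and Per1 were the clearest differences, in opposite directions. Over the 12519 genes with a mean of at least 10 reads, limma with voom weights on the recovered reads (the read-count fit) called 1 of the 10 clock genes lower in CKO, Nr1d1, against 3.04% of all tested genes, and 1 higher, Per1, against 1.1%. With an unadjusted p under 0.05 there were 6 of 10, against 24.4% of all tested genes. The 2 groups did not overlap for 5 of the 10. Nr1d1, Nr1d2 and Tef were lower in every CKO library than in any WT library, as were 14.2% of all genes, and Per1 and Ciart were higher in every CKO library, as were 2.55% of all genes. The median log2 change of the 10 genes was -0.57, beside -0.17 for all genes. Since these genes and the lists below were chosen with earlier results of these data known, such counts and medians are descriptions and not tests.

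The fit on log2(RPKM + 1) tested the 8513 genes that reached 1 RPKM in 4 or more libraries, and so 5 of the clock genes. Of these, 2 fell in CKO, Nr1d1 and Nr1d2, against 5.74% of all tested genes, and 1 was called higher, Per1, against 1.42%. Per1 entered that test only through its 4 CKO libraries, where it is high, so its call there supports nothing and the count of 3 in 5 is a description. Per2, Per3, Dbp, Tef and Ciart stayed below the limit, and the p-values of these genes and of Per1 come from the read-count fit or from the same fit with no filter on low values. Log2 changes are CKO minus WT. Those on the log2(RPKM + 1) scale understate the change of genes near or below 1 RPKM, and those of the read-count fit are given with that name.

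**Figure D1:**
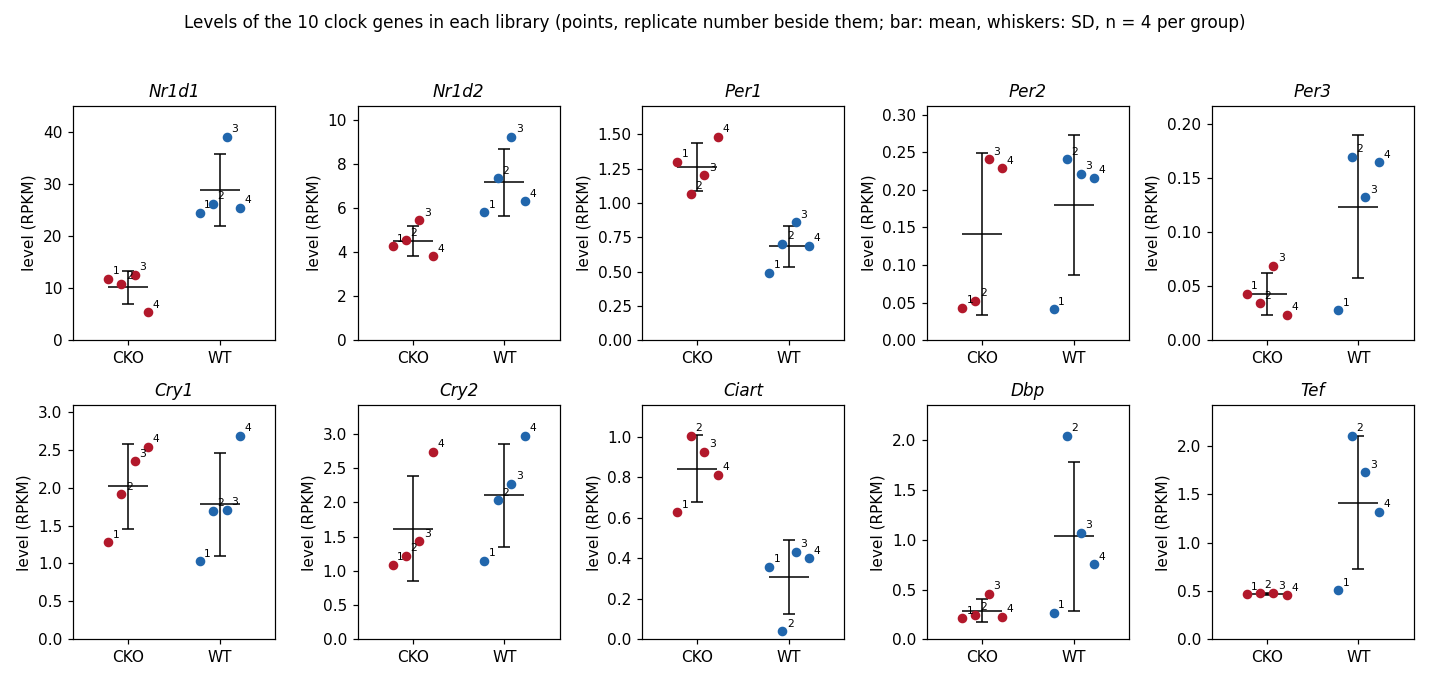
RPKM of each of the 10 clock genes in the 4 CKO libraries (left in each panel) and the 4 WT libraries (right), 1 point per library with its replicate number, a bar at the group mean and whiskers of 1 SD; each panel has its own axis. The groups stand apart for Nr1d1, Nr1d2, Tef, Per1 and Ciart, and WT1 is the lowest WT library in every panel except that of Ciart.

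Nr1d1 (ENSMUSG00000020889, chr11:98767932-98775333, minus strand of mm10) encodes the heme-sensing nuclear receptor REV-ERB alpha, a repressor of Arntl. It was at 11.8, 10.8, 12.5 and 5.38 RPKM in CKO1 to CKO4, against 24.4, 26.2, 39.1 and 25.4 RPKM in WT1 to WT4. The highest CKO library lay well below the lowest WT library, with CKO4 the lowest and WT3 the highest library. Group means were 10.1 ± 3.24 RPKM for CKO and 28.8 ± 6.93 RPKM for WT (SD, n = 4 each), 2.84-fold higher in WT. The log2 change was -1.45 (SE 0.23, 95% interval -1.96 to -0.94, limma adjusted p = 0.00642), and the read-count fit gave -1.55 (SE 0.25, limma adjusted p = 0.00618). The call held with each of the 8 libraries left out in turn, with limma adjusted p from 0.00445 to 0.0223. Nr1d1 shares 263 of its 3077 exon bases with Thra, a thyroid hormone receptor gene on the opposite strand. The sources used here do not say whether reads were assigned by strand, so reads of this stretch cannot be told apart. Thra itself was at 1.65, 2.27, 2.62 and 1.45 RPKM in CKO1 to CKO4 and at 2.43, 3.46, 2.75 and 1.94 RPKM in WT1 to WT4, below Nr1d1 in every library (log2 change -0.28, limma adjusted p = 0.267).

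Nr1d2 (ENSMUSG00000021775, chr14:18204054-18239127, minus strand) encodes REV-ERB beta, which acts beside REV-ERB alpha on the same sites. It was at 4.28, 4.54, 5.46 and 3.82 RPKM in CKO1 to CKO4, against 5.83, 7.36, 9.26 and 6.32 RPKM in WT1 to WT4. The groups did not overlap, but CKO3 and WT1 lay close together. Group means were 4.53 ± 0.689 RPKM for CKO and 7.19 ± 1.52 RPKM for WT (SD, n = 4 each), 1.59-fold higher in WT, and the log2 change was -0.56 (SE 0.15, limma adjusted p = 0.0417). The call was lost without CKO1 (limma adjusted p = 0.0594), CKO2 (0.0946), CKO4 (0.107), WT1 (0.0599), WT2 (0.0936), WT3 (0.104) or WT4 (0.0642), and in the read-count fit (0.0512). The ratio of Nr1d1 to Nr1d2 within a library was 2.76, 2.38, 2.29 and 1.41 in CKO1 to CKO4, against 4.19, 3.55, 4.22 and 4.02 in WT1 to WT4, so Nr1d1 was the higher of the pair in each library and by less in CKO.

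Per1 (ENSMUSG00000020893, chr11:69095217-69109960, plus strand) encodes a Period protein of the repressor complex, and its transcript is also induced acutely by cAMP and glucocorticoid signals. It was at 1.30, 1.07, 1.20 and 1.48 RPKM in CKO1 to CKO4, against 0.493, 0.702, 0.858 and 0.689 RPKM in WT1 to WT4. Every CKO library stood above every WT library. Group means were 1.26 ± 0.175 RPKM for CKO and 0.686 ± 0.15 RPKM for WT (SD, n = 4 each), 1.84-fold higher in CKO. The read-count fit gave a log2 change of 0.89 (SE 0.19, 95% interval 0.48 to 1.31, limma adjusted p = 0.0246), a call lost without CKO4 (0.0697) or WT1 (0.0752) and held in the other 6 omissions. On the log2(RPKM + 1) scale with no filter on low values the log2 change was 0.43 (SE 0.10, limma adjusted p = 0.0472), and that call was lost with each of the 8 libraries left out (limma adjusted p from 0.0655 without WT3 to 0.118 without WT1).

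The other Period genes were sparse and gave no call. Per2 (ENSMUSG00000055866, chr1:91415982-91459324, minus strand), the Period gene most needed for rhythms in mice, was at 0.0433, 0.0526, 0.241 and 0.229 RPKM in CKO1 to CKO4, against 0.0413, 0.241, 0.221 and 0.216 RPKM in WT1 to WT4. These are 9, 11, 50 and 44 reads in CKO and 8, 47, 42 and 40 reads in WT. CKO1, CKO2 and WT1 were low and the other 5 libraries high, so the split ran across the groups. The read-count fit gave a log2 change of -0.48 (95% interval -1.98 to 1.02, limma adjusted p = 0.697), an interval that spans large changes either way.

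Per3 (ENSMUSG00000028957, chr4:151003652-151044665, minus strand), a Period gene that mice can lack with little loss of rhythm, was at 0.0430, 0.0342, 0.0689 and 0.0233 RPKM in CKO1 to CKO4, against 0.0277, 0.169, 0.132 and 0.164 RPKM in WT1 to WT4. Those values rest on 5 to 16 reads in CKO and 6 to 37 reads in WT. WT1 lay inside the CKO range and the other 3 WT libraries above it. The log2 change in the read-count fit was -1.30 (SE 0.65, 95% interval -2.71 to 0.10, limma adjusted p = 0.237).

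The cryptochromes, the partners of the Period proteins that carry most of the repression, did not pass the test. Cry1 (ENSMUSG00000020038, chr10:85131700-85185064, minus strand) was at 1.28, 1.91, 2.34 and 2.54 RPKM in CKO1 to CKO4, against 1.03, 1.69, 1.71 and 2.68 RPKM in WT1 to WT4. The ranges overlapped almost entirely, with a log2 change of 0.13 (SE 0.18, 95% interval -0.27 to 0.53, limma adjusted p = 0.674) that turned to -0.0083 without WT1. Cry2 (ENSMUSG00000068742, chr2:92403646-92434043, minus strand) was at 1.09, 1.22, 1.43 and 2.74 RPKM in CKO1 to CKO4, against 1.15, 2.03, 2.27 and 2.97 RPKM in WT1 to WT4. CKO4 reached the WT levels and WT1 lay among the CKO levels, and the log2 change was -0.25 (SE 0.21, 95% interval -0.71 to 0.21, limma adjusted p = 0.463). Exons of Cry2 share 295 of 6320 bases with D930015M05Rik, a transcript on the opposite strand whose level was not analysed here.

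Ciart (ENSMUSG00000038550, chr3:95878503-95882251, minus strand), also called CHRONO, encodes a repressor that binds BMAL1. It stood at 0.629, 1.01, 0.927 and 0.814 RPKM in CKO1 to CKO4, against 0.357, 0.0394, 0.432 and 0.401 RPKM in WT1 to WT4. Every CKO library was above every WT library, and WT2 was far below the other WT libraries, with 3 reads (exact Poisson 95% interval 0.619 to 8.77, counting error only). Group means were 0.844 ± 0.164 RPKM for CKO and 0.308 ± 0.181 RPKM for WT (SD, n = 4 each), 2.74-fold higher in CKO. The test missed the threshold, with a log2 change of 0.50 and limma adjusted p = 0.0516 with no filter on low values, and 1.85 in the read-count fit (SE 0.56, limma adjusted p = 0.0781). Without WT2 the read-count fit gave a log2 change of 1.06 (limma adjusted p = 0.104). The 3 E-boxes of its promoter window are those printed above.

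Dbp and Tef encode PAR bZIP activators, the D-box binding output factors of the clock, and both were low in all CKO libraries and in WT1. Tef (ENSMUSG00000022389, chr15:81802421-81826863, plus strand) was at 0.468, 0.485, 0.478 and 0.455 RPKM in CKO1 to CKO4, against 0.507, 2.10, 1.73 and 1.32 RPKM in WT1 to WT4. The CKO libraries were nearly equal, WT1 stood just above them, and the other 3 WT libraries were far higher. Group means were 0.471 ± 0.013 RPKM for CKO and 1.41 ± 0.684 RPKM for WT (SD, n = 4 each), and the log2 change in the read-count fit was -1.40 (SE 0.41, limma adjusted p = 0.0731). Without WT1 it was -1.83 and passed (limma adjusted p = 0.002).

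Dbp (ENSMUSG00000059824, chr7:45705088-45710203, plus strand) was at 0.212, 0.246, 0.461 and 0.230 RPKM in CKO1 to CKO4, against 0.266, 2.05, 1.07 and 0.754 RPKM in WT1 to WT4. Here WT1 lay inside the CKO range. Group means were 0.287 ± 0.116 RPKM for CKO and 1.03 ± 0.751 RPKM for WT (SD, n = 4 each). The log2 change in the read-count fit was -1.56 (SE 0.62, limma adjusted p = 0.152), and -2.10 without WT1 (limma adjusted p = 0.0432). Dbp shares 539 of its 2993 exon bases with Sphk2, a sphingosine kinase gene on the opposite strand at 3.76 to 4.58 RPKM in CKO and 4.02 to 5.07 RPKM in WT (log2 change -0.07, limma adjusted p = 0.753), higher than Dbp in every library. Tef shares 193 of its 7867 exon bases with Gm17597, an antisense transcript not analysed here.

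**Figure D2:**
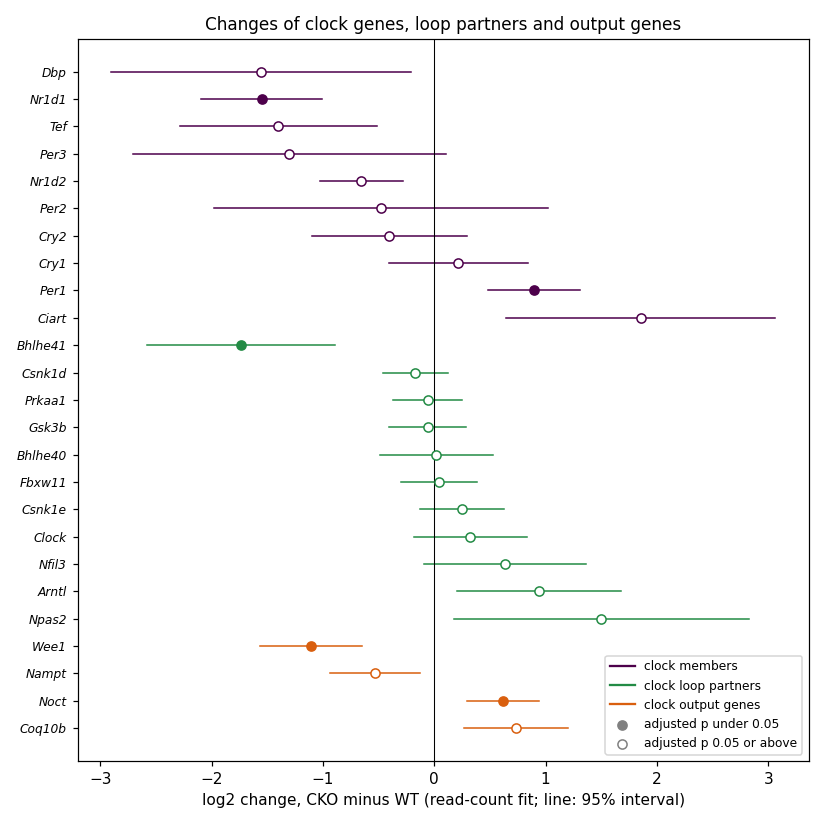
Log2 change, CKO minus WT, of the 10 clock genes and of the loop partners and clock output genes named in the text, in the read-count fit, each with its 95% interval as a line; filled points passed at an adjusted p under 0.05. Among the clock genes only Nr1d1 (-1.55) and Per1 (0.89) passed, on opposite sides. The intervals of Nr1d2, Tef, Dbp and Ciart were also clear of 0, but these genes did not pass.

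The libraries within WT were not alike. WT1 was the lowest WT library for 9 of the 10 clock genes, all but Ciart, while over the 12519 genes it was the lowest WT library for 19.5%. The mean of WT2 to WT4 over the WT1 level was 5.60 for Per3, 5.47 for Per2, 4.85 for Dbp and 3.38 for Tef. It was 2.12 for Cry2, 1.97 for Cry1, 1.52 for Per1, 1.31 for Nr1d2 and 1.24 for Nr1d1. Thus Nr1d1 in WT1 was close to the other WT libraries, while Per3, Cry2 and Dbp in WT1 lay inside the CKO range. The result for Nr1d1 was as large without WT1 (log2 change -1.52, limma adjusted p = 0.015). What made WT1 differ was not tested.

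**Figure D3:**
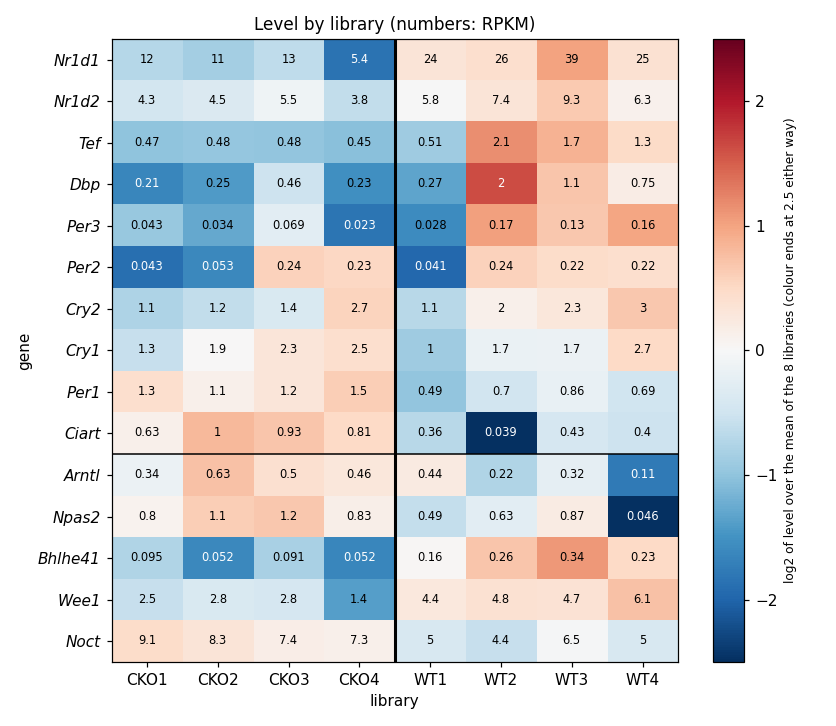
Log2 of the RPKM of each gene over its mean across the 8 libraries, with CKO1 to CKO4 on the left and WT1 to WT4 on the right, and RPKM written in each cell; colours end at 2.5 either way. Nr1d1 and Nr1d2 are low across CKO, Per1 and Ciart are high across CKO, and Tef, Dbp, Per3 and Per2 are low in WT1.

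By level, Nr1d1 came first and Nr1d2 second in both groups. In CKO the order went on with Cry1, Cry2, Per1, Ciart, Tef, Dbp, Per2 and Per3. Neighbours in that order stood apart in all 4 CKO libraries for Nr1d2 over Cry1, Per1 over Ciart and Ciart over Tef, and overlapped elsewhere. In WT it went on with Cry2, Cry1, Tef, Dbp, Per1, Ciart, Per2 and Per3, with neighbours apart in all 4 WT libraries for Nr1d1 over Nr1d2, Nr1d2 over Cry2 and Per1 over Ciart. Tef and Dbp thus had higher means than Per1 and Ciart in WT and lower means than both in CKO. This order rests on the gene lengths behind the deposited values, which differ from the GENCODE exon bases as given above, so close neighbours could change places.

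Ratios of clock genes within a library do not depend on its total. Their size rests on the gene lengths behind the deposited values, and their comparison between groups does not. The ratio of Nr1d1 to Per1 was 9.10, 10.1, 10.4 and 3.63 in CKO1 to CKO4, against 49.6, 37.3, 45.6 and 36.8 in WT1 to WT4. Its mean was 8.32 ± 3.18 in CKO and 42.3 ± 6.29 in WT (SD, n = 4 each), and WT1 stood with the other WT libraries. The ratio of Nr1d1 to Arntl, its repression target, was 34.6, 17.1, 24.8 and 11.7 in CKO1 to CKO4, against 55.3, 116, 121 and 226 in WT1 to WT4. Both ratios were lower in every CKO library, by a wide margin for Per1 and a narrower one for Arntl, and they restate the levels above with no test of their own. Nr1d1 over Nr1d2, given above, was also lower in every CKO library. Nr1d1 over Nfil3 ran from 0.134 to 0.700 in CKO and from 0.716 to 1.98 in WT, apart by a very small gap. The ratios of Tef to Nr1d1 and of Ciart to Per1 overlapped between the groups. Tef over Nr1d1 ran from 0.0382 to 0.0845 in CKO and from 0.0208 to 0.0805 in WT, and Ciart over Per1 ran from 0.485 to 0.942 in CKO and from 0.0561 to 0.725 in WT.

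**Figure D4:**
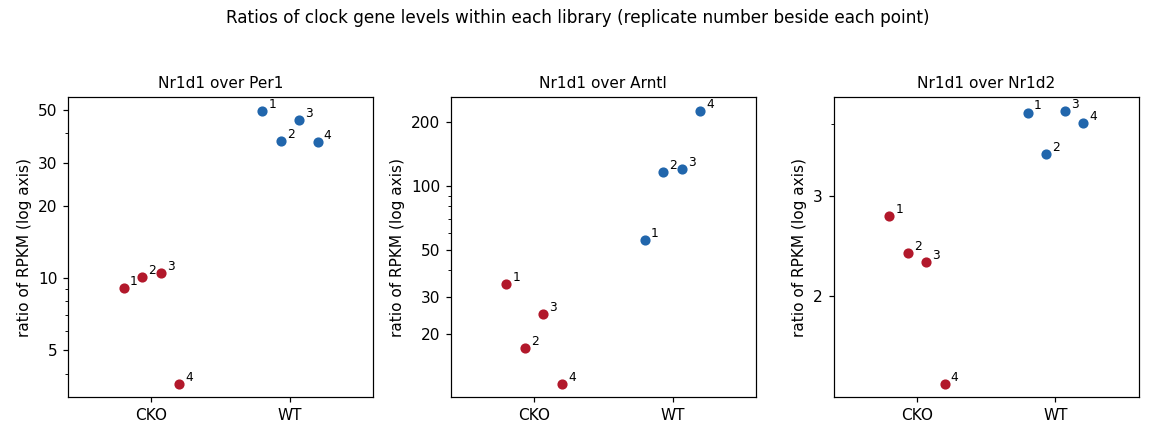
Ratio of RPKM within each library on a log axis for Nr1d1 over Per1, over Arntl and over Nr1d2, with CKO on the left and WT on the right and replicate numbers beside the points. The 4 CKO libraries lie below the 4 WT libraries in each panel, and CKO4 is the lowest.

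The activators and modifiers of the loop were examined beside these genes. Of 20 loop partners, 10 were tested on the log2(RPKM + 1) scale, and limma called 0 of them, with 0 at an unadjusted p under 0.05, against 27.3% of all tested genes. Their median log2 change was 0.12, beside -0.12 for all genes. Clock, the activator paired with BMAL1, averaged 2.45 ± 0.63 RPKM in CKO and 1.96 ± 0.536 RPKM in WT (SD, n = 4 each; log2 change 0.22, limma adjusted p = 0.405). Nfil3, a D-box repressor that opposes Dbp and Tef, averaged 32.8 ± 11.1 RPKM in CKO and 21.6 ± 9.85 RPKM in WT (SD, n = 4 each; 0.61, limma adjusted p = 0.284). Bhlhe40, an E-box repressor, had a log2 change of 0.02 (limma adjusted p = 0.971). The kinases that phosphorylate Period and cryptochrome proteins had log2 changes of -0.16 for Csnk1d, 0.21 for Csnk1e, -0.04 for Gsk3b and -0.05 for Prkaa1, the last 2 turning positive with median centring. Fbxw11, a ubiquitin ligase subunit that marks Period proteins for decay, had 0.04.

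The read-count fit reached 17 of the 20 loop partners and called 1, lower in CKO, as were 3.04% of all tested genes. With an unadjusted p under 0.05 there were 3 of 17, Bhlhe41, Arntl and Npas2, against 24.4% of all tested genes. The called gene was Bhlhe41, an E-box repressor related to Bhlhe40, named like Arntl and Npas2 after its values were seen. Bhlhe41 averaged 0.0726 ± 0.0239 RPKM in CKO and 0.247 ± 0.0734 RPKM in WT (SD, n = 4 each), with a log2 change of -1.74 in the read-count fit (SE 0.39, limma adjusted p = 0.0297). That call was lost without CKO2 (limma adjusted p = 0.0998), CKO3 (0.0504), CKO4 (0.0934), WT2 (0.0569) or WT3 (0.0719). Arntl (chr7:113207465-113314126, plus strand) was at 0.341, 0.631, 0.505 and 0.462 RPKM in CKO1 to CKO4, against 0.442, 0.225, 0.324 and 0.112 RPKM in WT1 to WT4. The groups overlapped through CKO1 and WT1, and the log2 change in the read-count fit was 0.94 (SE 0.34, limma adjusted p = 0.12). Npas2, which can stand in for CLOCK, averaged 0.992 ± 0.206 RPKM in CKO and 0.509 ± 0.344 RPKM in WT (SD, n = 4 each), and WT4 alone was near 0.046 RPKM (log2 change 1.50 in the read-count fit, limma adjusted p = 0.158). Without WT4 the log2 change in the read-count fit was 0.60 for Npas2 (limma adjusted p = 0.193) and 0.57 for Arntl (0.206).

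Of 10 clock output genes, 8 were tested on the log2(RPKM + 1) scale. Of these, 1 rose and 1 fell, against 1.42% higher and 5.74% lower over all tested genes, and the median log2 change was -0.02. The riser was Noct, a rhythmic dinucleotide phosphatase also induced by acute signals, at 8.0 ± 0.842 RPKM in CKO and 5.25 ± 0.87 RPKM in WT (SD, n = 4 each; log2 change 0.53, SE 0.13, limma adjusted p = 0.0309). The call of Noct was lost without CKO1 (limma adjusted p = 0.0508), CKO2 (0.0844), CKO4 (0.0503), WT1 (0.0874), WT2 (0.0869) or WT4 (0.068). Wee1, a kinase that holds back mitosis and is driven by E-boxes in liver, was at 2.47, 2.83, 2.78 and 1.42 RPKM in CKO1 to CKO4, against 4.42, 4.78, 4.74 and 6.10 RPKM in WT1 to WT4. Each CKO library was below each WT library (log2 change -0.85, SE 0.16, limma adjusted p = 0.0117), and the call held with each library left out. Coq10b, a coenzyme Q binding protein, had a log2 change of 0.69 (limma adjusted p = 0.0532, and 0.0329 without CKO1), and Nampt, an enzyme of NAD synthesis, had -0.38 (0.102).

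Per1 is also a target of acute signalling, so genes induced through CREB, MAP kinases or the glucocorticoid receptor were set beside it. Of 16 such genes, 14 were tested on the log2(RPKM + 1) scale. Of these, 3 rose and 1 fell, against 1.42% higher and 5.74% lower over all tested genes, and the median log2 change was 0.18. These 4 calls held with each library left out in turn. The risers were the immediate early transcription factor genes Egr1 (log2 change 2.15, limma adjusted p = 3.09e-07) and Junb (0.71, 0.0129) and the MAP kinase phosphatase gene Dusp1 (1.42, 0.0011). Id2, an inhibitor of helix-loop-helix factors that is rhythmic in mouse tissues, was at 7.14 ± 1.56 RPKM in CKO and 23.7 ± 1.94 RPKM in WT (SD, n = 4 each; log2 change -1.62, limma adjusted p = 4.27e-05). The other 10 tested genes were not called and were named after their values were seen. Log2 changes were 0.61 for Klf9, 0.57 for Fos, 0.32 for Tsc22d3, 0.26 for Crem and 0.11 for Errfi1. They were 0.06 for Sik1, 0.04 for Fkbp5, 0.01 for Nr4a1, 0.0041 for Sgk1 and -0.78 for Ddit4. The limma adjusted p ran from 0.0594 for Klf9 to 0.987 for Sgk1. What these genes, or the signals that induce them, have to do with the level of Per1 was not tested.

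Cell type markers differed between libraries as well. The summed level of 6 duct markers was 276 to 524 RPKM in CKO and 544 to 609 RPKM in WT, with no overlap. Monocyte and macrophage markers (7 genes) summed to 147 to 316 RPKM in CKO and 272 to 540 RPKM in WT, and neutrophil markers (5 genes) to 12.6 to 41.8 RPKM in CKO and 35.3 to 78.6 RPKM in WT, with some overlap in both. Islet markers (7 genes) summed to 1303 to 2051 RPKM in CKO and 855 to 1646 RPKM in WT. Endothelial markers (5 genes) summed to 12.3 to 16.4 RPKM in CKO and 12.6 to 21.4 RPKM in WT. On the log2(RPKM + 1) scale limma called 1 of 5 tested duct markers, 1 of 7 monocyte and macrophage markers and 1 of 3 endothelial markers lower in CKO, and 1 of 7 islet markers higher. Adipocyte markers (7 genes) summed to 24.4 to 39.2 RPKM in CKO and 24.0 to 141 RPKM in WT, and the 6 B and plasma cell markers to 0.174 to 0.496 RPKM in CKO and 0.142 to 13.2 RPKM in WT. Fibroblast and stellate cell markers (7 genes) summed to 65.6 to 104 RPKM in CKO and 55.6 to 123 RPKM in WT. T cell markers summed to 0.00843 to 0.0537 RPKM in CKO and 0.00946 to 0.724 RPKM in WT. WT2 was the highest library for these 2 sums and for the adipocyte, B and plasma cell, duct, monocyte and macrophage, and endothelial sums. It was not the highest for acinar, islet or neutrophil markers. Among the clock genes WT2 was the highest library for Tef, Dbp and Per3. Without WT2 the log2 change in the read-count fit was -1.15 for Tef (limma adjusted p = 0.126) and -1.11 for Dbp (0.249). No marker was at 0 in all libraries. The part that cell types have in the clock gene levels was not tested.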

How the data were processed

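Total RNA of 8 whole pancreas samples was extracted with TRIzol and sequenced on an Illumina Novaseq6000, per the labels' protocols. The build was mm10, per the submitters' processing notes; the sources used here do not give the aligner, counter, annotation or strand setting. The authors deposited values with no unit in the header, and the numbers show them to be RPKM: 16068 genes were above 0 in 2 or more libraries, and for 16056 (99.93%) some gene length turned all values into whole reads, to within 0.05 reads. Reads recovered in this way made up 99.96% to 99.98% of the library totals. An unnamed column of 8 numbers (1 column in all) was not used.

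Because the table held RPKM and not counts, limma 3.58.1 in R 4.3.3 was run on log2(RPKM + 1) for group alone, with robust variances and a mean trend, on the 8513 genes that reached 1 RPKM in 4 or more libraries. P-values were adjusted by Benjamini-Hochberg across every tested gene (threshold 0.05). The same fit with no filter covered 16068 genes. The read-count fit (limma with voom weights, 12519 genes with a mean of at least 10 reads) was added after the data were seen, since 5 clock genes were below the limit. The other settings were a pseudocount of 0.1, the replicate number as a block, variances without a trend, median centring, totals without acinar enzymes and each library left out. Intervals on reads are exact and cover counting error only.

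The members and lists were chosen with earlier results of these data known, so no p-value was computed over a list. The text names all 10 members, the tested loop partners (some of which are not reported here), up to 4 genes of each other list with the smallest unadjusted p, and Anxa1; other genes are said to be named after their values were seen, as Thra and Sphk2 were. Positions and exon overlaps are from GENCODE M21. Steps were tested on simulated data. Recovery and tables used pandas 2.3.3, NumPy 2.4.6 and SciPy 1.17.1 in Python 3.11.15, and plots used Matplotlib 3.10.9.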

Additional observations from a re-analysis of the deposited data

Results flagged for a closer look

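In 5 groups 1 library stood apart from the other 3 of its group by Dixon's criterion. Of these, 3 were groups of clock genes. Nr1d1 had its highest WT level in WT3, at 39.1 RPKM, while the other WT libraries ran from 24.4 to 26.2 RPKM; without WT3 the log2 change was -1.30 (limma adjusted p = 0.0185). Per2 had its lowest WT level in WT1, at 0.0413 RPKM, while the other WT libraries ran from 0.216 to 0.241 RPKM. Dbp had its highest CKO level in CKO3, at 0.461 RPKM, while the other CKO libraries ran from 0.212 to 0.246 RPKM. Among the other genes examined, Coq10b had its lowest WT level in WT2, at 8.39 RPKM, and Sphk2 its lowest CKO level in CKO1, at 3.76 RPKM. In all, 68 groups of 34 genes were examined, 20 of them groups of clock genes. Chance gives such a gap in about 1 group in 20.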

How the results depend on the processing

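Nr1d1 stayed lower in CKO and past the threshold in each alternative run (log2 change -1.67 to -1.20 over both fits with a library left out). The calls of Wee1, Egr1, Dusp1, Junb and Id2 also held in each alternative run, while those of Nr1d2, Per1, Noct, Bhlhe41 and Anxa1 did not. Depth limits the clock genes with few reads, Per3, Per2, Ciart and Dbp, in that order from the fewest. The count of 3 clock genes called ran from 1 to 2 with a library left out, at 1 for every library except CKO3. Leaving out any 1 CKO library took Per1 below the filter, so 4 clock genes were tested there in place of 5. The 2 clock output genes ran from 1 to 2, at 1 without CKO2, CKO4, WT1, WT2 or WT4. The 610 called genes ran from 185 to 686, with 228 without CKO2, 267 without CKO4, 185 without WT1, 245 without WT2, 297 without WT3 and 254 without WT4. With no filter on low values 1 loop partner passed (Bhlhe41) in place of 0, and 1 output gene in place of 2. In the read-count fit the 519 called genes ran from 178 to 588, and the 2 clock genes from 1 (without CKO4) to 3, with a library left out. The 519 became 178 without CKO2, 193 without CKO4, 223 without WT1, 282 without WT2 and 231 without WT3. With no filter, leaving out WT1 brought Tef (limma adjusted p = 0.0113) and Per3 (0.0264) past the threshold. The log2 change of Cry1 ran from -0.0083 to 0.28 with a library left out, and from -0.020 to 0.44 in the read-count fit, in both turning sign without WT1. Log2 changes near 0 also turned sign with a library left out for Bhlhe40 (-0.13 to 0.25), Fbxw11 (-0.053 to 0.14), Gsk3b (-0.14 to 0.013) and Prkaa1 (-0.11 to 0.018). Apart from the loss of Per1 to the filter, why these values moved was not tested.

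Median centring turned 121 higher and 489 lower genes to 305 and 267, and totals without acinar enzymes to 228 and 454, so changes are read beside the median of -0.12. In the read-count fit 138 higher and 381 lower genes became 401 and 323 with centring and 276 and 453 with totals without acinar enzymes. Centring kept the directions of Nr1d1 (-1.35), Nr1d2 (-0.45) and Per1 (0.53), and turned Gsk3b to 0.060, Prkaa1 to 0.051 and Sphk2 to 0.038. On the log2(RPKM + 1) scale it moves every gene by the same amount, also genes near 0 RPKM. With no filter it turned Per2 to 0.055 (limma adjusted p = 0.736) and brought Ciart past the threshold (0.00473, and 0.0366 with totals without acinar enzymes). In the read-count fit Ciart missed the threshold with centring, with totals without acinar enzymes and with the block (limma adjusted p from 0.0516 to 0.116). Per2 stayed negative there with centring (-0.33). Totals without acinar enzymes turned Gsk3b to 0.0065 and Prkaa1 to 0.0049.

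Same-numbered libraries did not deviate together (correlations of -0.12, -0.32, 0.14 and 0.03), so the numbers do not pair them. With the replicate number as a block, 548 genes passed in place of 610, and Per1 missed the threshold (limma adjusted p = 0.0528, and 0.114 with no filter). In the read-count fit with the block 525 of 12519 genes passed (143 higher and 382 lower) in place of 519, and 5 clock genes in place of 2, 1 higher and 4 lower. Of the CKO libraries 1 correlated best with the WT library of its own number.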
